A study of Mus musculus with 6 samples.

Results

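The genes that split and join mitochondria were followed in sorted mouse erythroblasts labelled Tfam WT or Tfam KO. The set holds 8 genes chosen by name: the mitofusins Mfn1 and Mfn2, the inner membrane GTPase Opa1, its protease Oma1, the fission GTPase Dnm1l, the fission receptors Fis1 and Mff, and the fission regulator Mtfr1. Each of the 8 was found on 1 row of its own among the 23119 rows of the deposited table. RNA was sequenced from CD71+Ter119+ erythroid cells of the fetal liver at embryonic day 13.5, from mice of strain C57BL/6. There were 3 libraries labelled Tfam WT and 3 labelled Tfam KO. Cells bearing CD71, which takes up transferrin, and the erythroid surface antigen Ter119 are maturing erythroblasts. Tfam coats mitochondrial DNA and is needed for its copying and transcription. The labels name no Cre driver, litter or sex and do not say whether replicates were separate embryos, so the errors below measure only the spread between these libraries.

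Mitochondria form a network that is continually joined and cut. Mfn1 and Mfn2 tether and fuse the outer membranes, and Opa1 fuses the inner membranes and holds the cristae in shape. Oma1 cleaves Opa1 when the inner membrane loses its potential, which stops fusion. Dnm1l is a cytosolic dynamin that is recruited by outer membrane receptors such as Mff, assembles around the organelle and constricts it. Fis1 is a small outer membrane protein of the same process, and Mtfr1 is a protein whose overexpression fragments mitochondria. Maturing red cells remodel their mitochondria and in the end remove them.

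The libraries were not alike. The level is given in RPKM, reads scaled by transcript length and by library size, and its sum was 422534 to 535013 in 5 libraries and 814665 in WT replicate 3. In WT replicate 3 the 1654 rows with the shortest transcripts, at most 1635 nucleotides, stood at a median of 0.67 above their mean over all libraries on the log2 scale, and the 1654 longest, at least 4888 nucleotides, at -0.53. The medians of the short rows in the other libraries were -0.29 to 0.032. Differences between the groups for the 8 genes are therefore given with and without WT replicate 3. The 9 erythroid markers summed to 9691 to 14263 RPKM in WT and 9501 to 12782 in KO, and 8 of the 9 overlapped between the groups. The exception was Epor, the erythropoietin receptor, at 220, 215 and 389 RPKM in WT and 112, 97.7 and 128 in KO. Macrophage markers, found for 9 of 10 listed names, summed to 12.2 to 18.7 RPKM in WT and 4.55 to 11.7 in KO. Without WT replicate 3 the WT sums were 12.2 to 13.0. In 4 of the 9 every KO library lay below WT, and only 6 of the 9 averaged 1 RPKM or more. Among all rows that did, 2.36% lay below WT in every KO library, which is the background for Epor too. The summed hepatocyte (7), megakaryocyte (5) and neutrophil (6) markers overlapped between the groups. No listed marker that was found stood at 0 in all 6 libraries. In such bulk samples fewer cells of a type and less RNA per cell cannot be told apart. The part of these marker differences, between groups or between libraries, in the levels below was not tested. Tfam was at 7.22, 8.44 and 5.72 RPKM in WT and 5.92, 7.22 and 6.25 in KO, which overlap (p = 0.7 by an exact permutation test, two-sided, which cannot go below 0.1 here), so its gene-level value does not check the labels.

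No member of the set differed between KO and WT by the test across the table. On log2(RPKM + 1), with limma over the 8302 rows that average 1 RPKM or more, 0 of the 8 passed an adjusted p of 0.05, and 0 rows of the table did (0%). When WT replicate 3 was left out again 0 of 8 passed, with 1 row of the table called (0.012%). At an unadjusted p under 0.05 the members numbered 0 in both fits, against 100 rows of the table (1.2%) and, without WT replicate 3, 183 (2.2%). With all libraries the fitted value was above 0 for 6 members and below it for 2. Over all tested rows it was above 0 for 3900 and below it for 4402 (3731 and 4570 without WT replicate 3). The median log2 fold change of the members was 0.048, beside -0.019 over all tested rows. The median without WT replicate 3 was 0.015, beside -0.013. In no member did the KO and WT libraries separate when all 6 were used, while 4.54% of tested rows did so. Without WT replicate 3 they separated in 2 members, Mfn2 and Mff, and in 11.3% of tested rows.

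**Figure D1:**
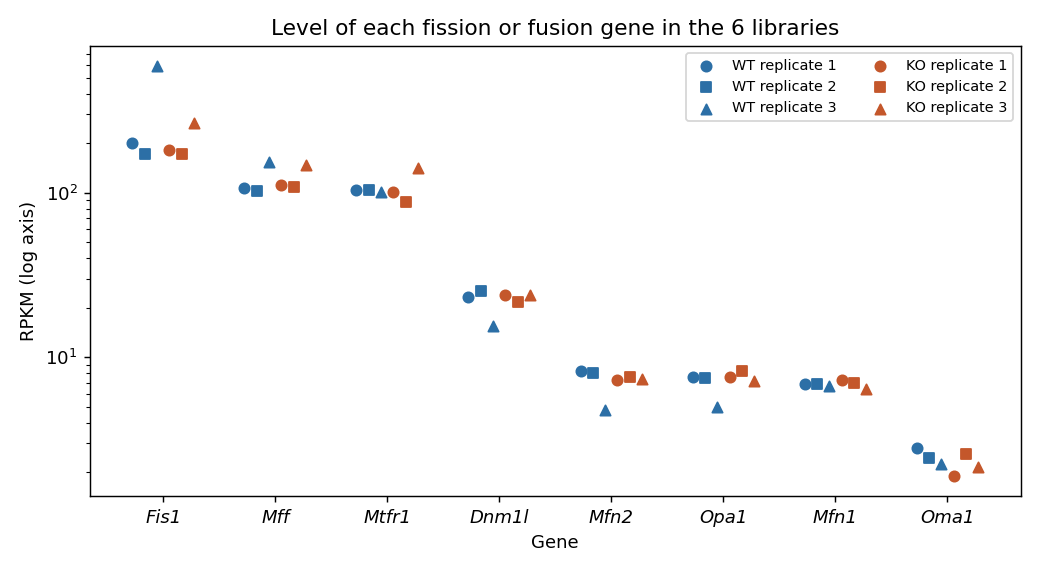
RPKM of each gene (log axis) in the 3 WT libraries (blue) and 3 KO libraries (orange), with circles, squares and triangles for replicates 1, 2 and 3. Fis1, Mff and Mtfr1 lie at 87.7 RPKM or more in every library and the other 5 genes at 25.3 or less. WT replicate 3 is the highest point of Fis1 and Mff and the lowest of Dnm1l, Mfn2 and Opa1.

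The genes fell into separate levels that held in both groups. Fis1 stood highest, with a mean of 318 ± 231 RPKM in WT and 206 ± 51.8 in KO (SD, n = 3 each). Mff followed with 121 ± 28.7 and 122 ± 21.3, and Mtfr1 with 103 ± 1.90 and 110 ± 27.9. These 3 genes stood at or above the 91.5th percentile of tested rows by mean level. Dnm1l was at 21.3 ± 5.15 and 23.2 ± 1.25 RPKM. Mfn2, Opa1 and Mfn1 were close together, at 7.04 ± 1.95, 6.66 ± 1.47 and 6.82 ± 0.0973 in WT and 7.39 ± 0.159, 7.69 ± 0.523 and 6.88 ± 0.412 in KO. Oma1 was lowest, at 2.50 ± 0.292 and 2.22 ± 0.345, the 14.8th percentile. The ranges of Fis1 and Mff, of Mtfr1 and Dnm1l, of Dnm1l and the next gene, and of the lowest mitofusin or Opa1 and Oma1 did not overlap in either group. Those of Mff and Mtfr1 overlapped in both groups. So did those of Mfn2 with Mfn1 and of Opa1 with its neighbour in the order, so the ranges do not order these genes. Compared within libraries, Mff stood above Mtfr1 in 2 of 3 WT and in all 3 KO libraries. Mfn2 stood above Mfn1 in 2 of 3 libraries of each group. RPKM is divided by transcript length, but a length trend between libraries remained, so distances between genes of unequal length are approximate. Over WT replicates 1 and 2 alone the means were 185 RPKM for Fis1, now below the KO mean, 104 for both Mff and Mtfr1, 24.2 for Dnm1l, 8.16 for Mfn2, 7.51 for Opa1, 6.87 for Mfn1 and 2.63 for Oma1. In those 2 libraries Mfn2, Opa1 and Mfn1 no longer overlapped each other.

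Mfn1, one of the outer membrane mitofusins, was the steadiest of the 8 in the uncorrected RPKM of the 6 libraries. Its level was 6.83, 6.91 and 6.72 RPKM in WT and 7.26, 6.94 and 6.44 in KO. The highest library was 1.13 times the lowest, and WT replicate 3 lay among the rest. Without WT replicate 3 Opa1 (1.14 times), Mfn2 (1.15) and Dnm1l (1.16) came close to this. With length and GC trends removed the 95% interval of the Mfn1 fold change, -0.44 to 0.22, was wider than that of Dnm1l, -0.23 to 0.27. Only 34 of the 8302 tested rows had a smaller standard deviation over the 6 libraries on the log2 scale, and among the 1446 rows with a mean of 5 to 10 RPKM only 6 did. Its log2 fold change was 0.0098 (95% interval -0.29 to 0.31, limma), and 0.00027 (-0.26 to 0.26) without WT replicate 3.

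Mfn2, the mitofusin that also sits at contacts with the endoplasmic reticulum, was at 8.29, 8.04 and 4.79 RPKM in WT and 7.23, 7.55 and 7.39 in KO. WT replicates 1 and 2 were the highest of the 6 and WT replicate 3 the lowest, so the groups overlapped. KO minus WT came to a log2 fold change of 0.094 (95% interval -0.39 to 0.58). Without WT replicate 3 every KO library lay below both WT libraries, as in 5.9% of tested rows, and the log2 fold change turned to -0.13 (-0.38 to 0.12, limma adjusted p = 1).

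The level of Opa1, the inner membrane fusion GTPase, was 7.56, 7.45 and 4.96 RPKM in WT and 7.61, 8.25 and 7.22 in KO. Again WT replicate 3 was the lowest, and the other 5 libraries lay within 1.14 times of each other. KO was higher than WT in each of the 3 numbered pairs, as in 10.8% of tested rows. Pair 1 was nearly equal, at 7.56 RPKM in WT and 7.61 in KO, and pair 3 holds the low WT replicate 3. Opa1 had the largest positive log2 fold change of the set, 0.20 (95% interval -0.23 to 0.63, adjusted p = 0.909), and without WT replicate 3 it was 0.030 (-0.24 to 0.29). Oma1, the stress-activated protease that cleaves it, was at 2.81, 2.44 and 2.24 RPKM in WT and 1.91, 2.59 and 2.17 in KO. Its lowest library was a KO and its highest a WT, with the rest mixed. Its log2 fold change was -0.12 (-0.48 to 0.24), and -0.17 (-0.52 to 0.17) without WT replicate 3.

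Dnm1l, the dynamin that constricts mitochondria, was at 23.2, 25.3 and 15.5 RPKM in WT and 24.0, 21.7 and 23.8 in KO. It stood about as far below the other libraries in WT replicate 3 as Mfn2 did. With all libraries the log2 fold change was 0.14 (95% interval -0.34 to 0.62), and without WT replicate 3 it turned to -0.063 (-0.35 to 0.22).

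Fis1 varied more than any other member. Its level was 199, 171 and 585 RPKM in WT and 182, 171 and 266 in KO. WT replicate 3 held 3.43 times the lowest level, and KO replicate 3 was the next highest library. KO was lower than WT in each of the 3 numbered pairs, as in 20.1% of tested rows. Pair 2 was nearly equal, at 170.88 RPKM in WT and 170.58 in KO, and pair 3 holds the high WT replicate 3. The log2 fold change was -0.42 (95% interval -1.55 to 0.70, adjusted p = 0.909) and turned to 0.13 (-0.40 to 0.66) without WT replicate 3.

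Mff, the main receptor for Dnm1l, was at 107, 102 and 154 RPKM in WT and 111, 108 and 147 in KO. The libraries numbered 3 were the highest of each group, and the other 4 lay close together. Between groups the log2 fold change was 0.023 (95% interval -0.53 to 0.58). Without WT replicate 3 every KO library lay above both WT libraries, as in 5.42% of tested rows, and the log2 fold change was 0.21 (-0.21 to 0.63, limma adjusted p = 1).

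Mtfr1 was nearly level in WT, at 104, 103 and 101 RPKM, and spread in KO, at 102, 87.7 and 142. KO held both its lowest library (replicate 2) and its highest (replicate 3). The log2 fold change was 0.072 (95% interval -0.44 to 0.59), and 0.057 (-0.44 to 0.56) without WT replicate 3. In KO replicate 3 the log2 levels of Fis1, Mff and Mtfr1 stood 0.59, 0.42 and 0.58 above the mean of KO replicates 1 and 2, while those of the other 5 members lay between -0.12 and 0.056. Against the mean of all 6 libraries, the medians of the shortest rows were -0.29, -0.12 and 0.032 in KO replicates 1, 2 and 3. Those of the longest rows were 0.17, 0.060 and 0.033. Relative to the other KO libraries, KO replicate 3 was thus higher in short rows and lower in long rows. Oma1, whose transcript of 1915 nucleotides is shorter than those of Mff (2087) and Mtfr1 (2953), stood at -0.028 there. The part of transcript length in the levels of KO replicate 3 was not tested.

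**Figure D2:**
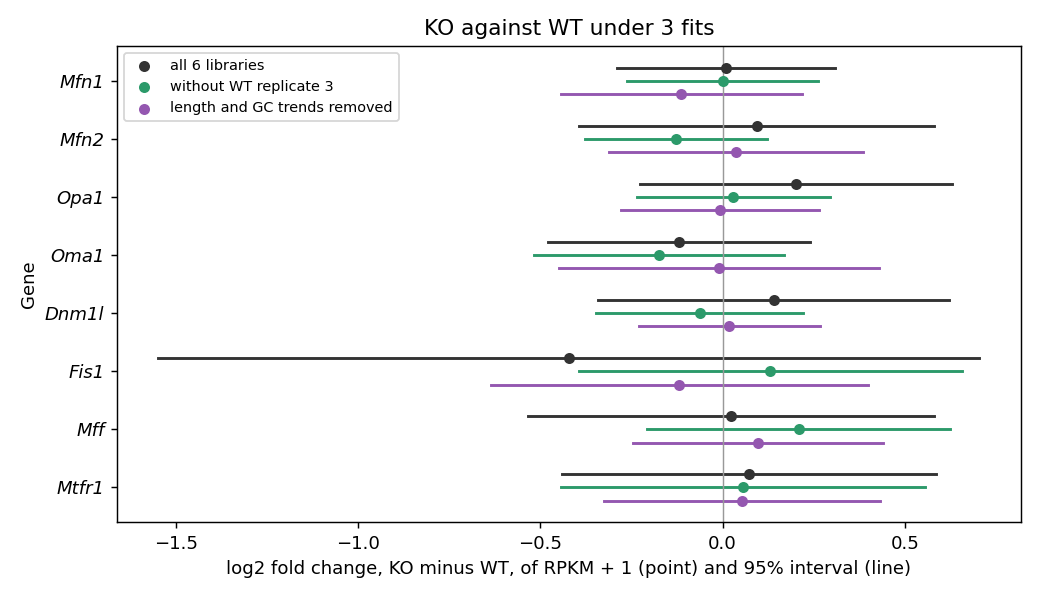
Log2 fold change of RPKM + 1, KO minus WT (points), with 95% intervals from limma (lines), for each gene in the fits to all libraries, to those left after dropping WT replicate 3, and to values freed of length and GC trends. Every interval crosses 0, and the widest, that of Fis1 with all libraries, runs from -1.55 to 0.70.

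The intervals say which changes these libraries leave room for. With all 6 libraries the 95% interval of 7 members lay inside a doubling or a halving (1 on the log2 scale of RPKM + 1), Fis1 being the exception, and 79.7% of tested rows had such an interval. Without WT replicate 3 all 8 intervals did, as did 96.6% of tested rows, and the 8 intervals together spanned -0.52 to 0.66. These fits did not use the replicate numbers. With replicate number added to the model for all 6 libraries, the interval was -1.08 to 0.24 for Fis1 and -0.31 to 0.36 for Mff. For Mfn1 it was slightly wider, at -0.32 to 0.34. Changes inside a member's own interval were not resolved.

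The position of WT replicate 3 differed from gene to gene. Relative to the mean of WT replicates 1 and 2, its log2 level was 1.66 higher for Fis1 and 0.56 higher for Mff, but 0.66, 0.61 and 0.51 lower for Mfn2, Dnm1l and Opa1 (differences of -0.66, -0.61 and -0.51). Oma1 (-0.16), Mtfr1 (-0.044) and Mfn1 (-0.029) moved little. The longest annotated transcripts were 948 nucleotides for Fis1, 1915 for Oma1, 2087 for Mff, 2953 for Mtfr1, 3966 for Dnm1l, 4341 for Mfn2, 4562 for Mfn1 and 6230 for Opa1. The shortest member was thus the one raised most, and the members that were low in WT replicate 3 are all longer than Mtfr1. Mfn1 has a length like that of Mfn2 and was not low. When each library's trends with transcript length and GC content were removed, the log2 fold change was -0.12 (95% interval -0.64 to 0.40) for Fis1, -0.0071 (-0.28 to 0.26) for Opa1, -0.0097 (-0.45 to 0.43) for Oma1, 0.037 (-0.31 to 0.39) for Mfn2 and 0.019 (-0.23 to 0.27) for Dnm1l. It was 0.053 (-0.33 to 0.43) for Mtfr1 and moved away from 0 for Mfn1, to -0.11 (-0.44 to 0.22), and for Mff, to 0.097 (-0.25 to 0.44). With this correction 0 of 8 members passed.

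**Figure D3:**
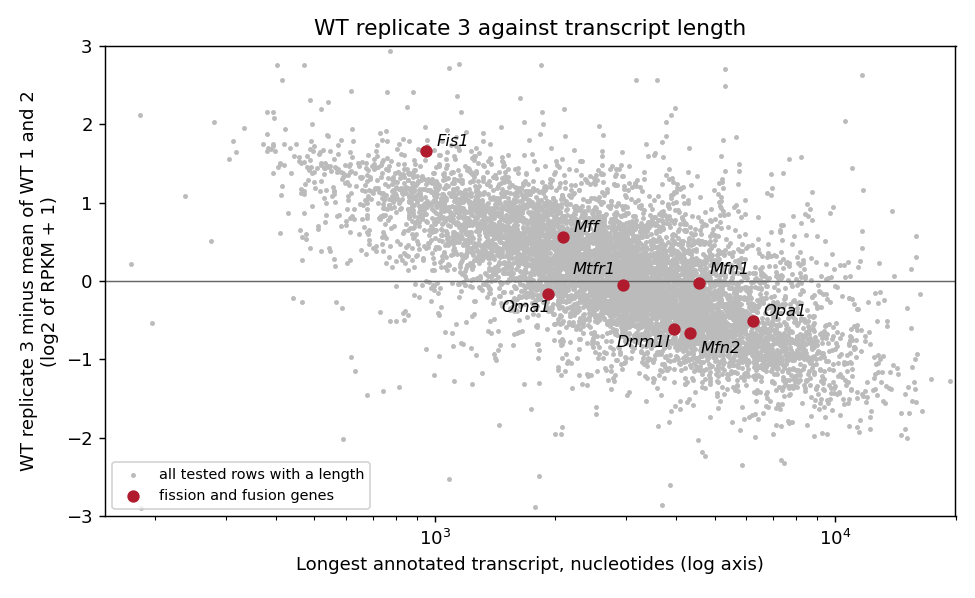
Difference between WT replicate 3 and the mean of WT replicates 1 and 2 (log2 of RPKM + 1) against the length of the longest annotated transcript (nucleotides, log axis). Grey points are tested rows with a length (85 lie outside the axes), and red points are the 8 genes. Most short rows lie above 0 and most long rows below it, with Fis1 at 1.66 and Mfn2 at -0.66.

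Over the 6 libraries Mfn2, Opa1 and Dnm1l varied together, and so did Fis1 and Mff. Pearson correlations of log2(RPKM + 1) were 0.93 for Mfn2 and Opa1, 0.94 for Mfn2 and Dnm1l, 0.87 for Opa1 and Dnm1l and 0.88 for Fis1 and Mff, while Opa1 and Fis1 correlated at -0.97. Without WT replicate 3 the first 3 were -0.066, 0.16 and -0.78, so those correlations rest on that library. Fis1 and Mff stayed at 0.94, and Fis1 with Mtfr1 went from 0.19 to 0.94. In these 5 libraries KO replicate 3 holds the highest level of all 3 genes. Opa1 stayed negative with Fis1, at -0.66 in place of -0.97, and with Mff, at -0.51 in place of -0.76. The correlations are descriptions over 6 and 5 libraries that share depth and length effects.

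Promoters are shown for Fis1 and Mff, whose levels varied together, and for Opa1, whose correlation with both was negative with and without WT replicate 3. That trait is not particular to Opa1. Mfn1, Mfn2 and Oma1 also correlated negatively with Fis1 and Mff in both settings. Without WT replicate 3 the values of Mfn1, -0.82 and -0.75, were further from 0 than those of Opa1. RefSeq sequences (GRCm38.p6) were matched for 7 of the 8 genes, all but Mtfr1, and each line holds the 250 bases before an annotated start, 5′ to 3′ on the gene's strand. The windows are chr5:136953025-136953274 (+) for Fis1, chr1:82724640-82724889 (+) for Mff and chr16:29579084-29579333 (+) for Opa1. Capitals mark matches on either strand to the NRF1 core (the longest run of capitals in the Opa1 line, the same on both strands), the ETS core CCGGAAG, the GC box GGGCGG, the CCAAT box CCAAT or the GATA core GATAA, and none of the matches shown overlap.
Fis1: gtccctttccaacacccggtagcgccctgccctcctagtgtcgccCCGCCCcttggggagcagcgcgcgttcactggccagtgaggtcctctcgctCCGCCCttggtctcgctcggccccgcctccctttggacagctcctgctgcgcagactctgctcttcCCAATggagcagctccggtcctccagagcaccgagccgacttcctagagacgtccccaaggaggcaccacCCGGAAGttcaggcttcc
Mff: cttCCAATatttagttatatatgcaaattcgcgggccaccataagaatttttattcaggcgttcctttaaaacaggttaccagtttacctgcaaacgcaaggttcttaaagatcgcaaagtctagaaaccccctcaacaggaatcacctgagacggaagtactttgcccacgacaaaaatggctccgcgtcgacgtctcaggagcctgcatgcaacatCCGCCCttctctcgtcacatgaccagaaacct
Opa1: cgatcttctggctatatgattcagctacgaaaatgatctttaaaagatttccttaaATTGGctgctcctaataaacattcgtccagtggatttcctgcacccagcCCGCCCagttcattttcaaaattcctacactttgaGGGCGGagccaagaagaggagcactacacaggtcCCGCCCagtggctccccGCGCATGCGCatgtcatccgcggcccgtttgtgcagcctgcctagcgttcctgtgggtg

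The Opa1 window holds 1 NRF1 core, a motif named for an activator of nuclear genes for mitochondrial proteins, and 0.777% of all 32817 promoter windows of this length hold one. It also holds 3 GC boxes and 1 CCAAT box. The windows of Mfn1, Mfn2 and Oma1, which also correlated negatively with Fis1 and Mff, hold no NRF1 core. The Fis1 window holds 1 ETS core (6.9% of all windows), 2 GC boxes (32.7%) and 1 CCAAT box (33.8%), and the Mff window 1 GC box and 1 CCAAT box. Another Mff window with as many annotated starts near it holds 1 GC box and no CCAAT box. No GATA core, found in 22.6% of all windows, lies in these 3 windows. Fis1 has another annotated start, whose window was not printed and holds 2 GATA cores. Such matches describe letters only, and a link between them and the correlations was not tested.

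Ratios within a library do not depend on how that library was scaled as a whole. Mfn2 relative to Mfn1 was 1.21, 1.16 and 0.713 in WT and 0.997, 1.09 and 1.15 in KO, so WT held both the highest and the lowest ratios. With that library left out all KO ratios lay below the WT ratios. Dnm1l relative to Opa1, fission to inner membrane fusion, was 3.07, 3.40 and 3.13 in WT and 3.15, 2.63 and 3.29 in KO, overlapping throughout. Mff relative to Fis1 was 0.537, 0.597 and 0.263 in WT and 0.610, 0.634 and 0.552 in KO, with WT replicate 3 alone far below. Opa1 relative to its protease Oma1 was 2.69, 3.06 and 2.22 in WT and 3.99, 3.19 and 3.33 in KO. This was the only one of the 4 ratios in which every KO library lay above every WT library, also without WT replicate 3. The mean log2 ratio was 1.80 ± 0.172 in KO and 1.40 ± 0.233 in WT (SD, n = 3), and 1.52 over WT replicates 1 and 2. Among single tested rows 2.18% lay above WT in every KO library, and 5.42% without WT replicate 3. The share among ratios of gene pairs was not counted and may differ from these. With each library's length and GC trends removed, the Opa1 to Oma1 ratio was 2.47, 2.53 and 4.05 in WT and 3.23, 2.86 and 3.29 in KO. The groups then overlapped, and the KO minus WT difference of the mean log2 ratio was 0.088 in place of 0.41, although without WT replicate 3 the KO libraries still lay above WT. Opa1 and Oma1 themselves overlapped between the groups, and the ratio was not tested.

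**Figure D4:**
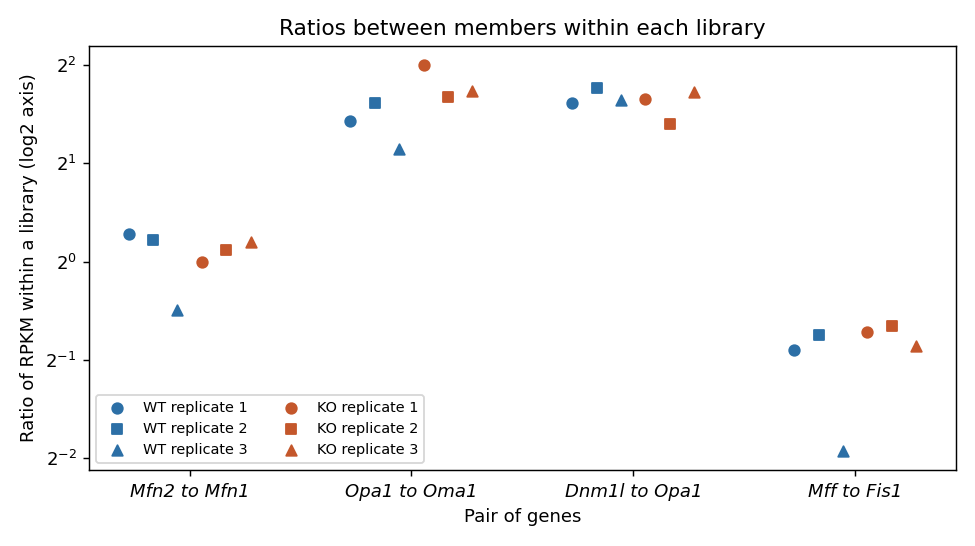
Ratio of the RPKM of a pair of genes within each library (log2 axis) for WT (blue) and KO (orange), with circles, squares and triangles for replicates 1, 2 and 3. The KO points of Opa1 to Oma1, from 3.19 to 3.99, lie above the WT points, from 2.22 to 3.06, and the other ratios overlap.

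Of the 44 other genes of mitochondrial dynamics that were listed by role, 43 were found and 37 tested, and 0 passed the limma test in either direction, with or without WT replicate 3. Their median log2 fold change was -0.063, and -0.016 without that library. KO was lower in all 3 numbered pairs for 10 of the 37 and higher for 3, beside 20.1% and 10.8% of tested rows. March5 was not matched to a row. Yme1l1, Stoml2, Apoo and Rhot2 share their rows with other genes, so those values cannot be assigned to 1 gene. The 6 genes with a mean RPKM below 1 (Mief2, Gdap1, Inf2, Park2, Pld6 and Miga1) were not tested.

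Among the proteases and scaffolds that act on Opa1, the fitted value was above 0 for 1 of 8 and below it for 7. Over all tested rows it was below 0 for 4402 of 8302. The median log2 fold change of this list was -0.20 and became -0.000057 without WT replicate 3. After removal of length and GC trends it was -0.080. Phb2, a prohibitin that stabilises long Opa1, was at 58.0, 59.9 and 95.2 RPKM in WT and 48.4, 71.8 and 59.8 in KO. The row of Stoml2, a prohibitin-like scaffold, and Fam214b was at 211, 181 and 319 and at 190, 162 and 231. Both were highest in WT replicate 3, and without it the log2 fold changes were 0.0082 and -0.026.

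Adaptors of Dnm1l and other fission factors had 5 of 8 tested members at a higher fitted value (median 0.051) and 1 of 8 without WT replicate 3 (median -0.071). Spire1, an actin nucleator that acts at fission sites, was at 65.0, 68.9 and 58.7 RPKM in WT and 71.5, 59.4 and 81.1 in KO, and the dynamin Dnm2 at 54.4, 52.6 and 59.2 and at 52.3, 46.4 and 61.1. Both overlapped between groups. Mtfr1l, a relative of Mtfr1, was at 16.3, 15.3 and 18.4 RPKM in WT and 13.1, 14.1 and 15.2 in KO. All KO values were under all WT values, which holds for 2.36% of tested rows and for 1 of the 37 tested companion genes, and the log2 fold change was -0.23 (SE 0.14, limma adjusted p = 0.909), or -0.16 without WT replicate 3. Mief2, an outer membrane receptor that recruits Dnm1l and whose row bears its older symbol Smcr7, was at 0.504, 0.481 and 0.619 RPKM in WT and 0.250, 0.266 and 0.304 in KO. It too was lower in every KO library, at a level too low for the filter, and the share of such rows below the filter was not counted. In the limma fit without a filter its log2 fold change was -0.27 (95% interval -0.40 to -0.14), with an unadjusted p of 0.002 and an adjusted p of 0.931 over 15868 rows. Slc25a46, an outer membrane carrier protein, overlapped when all libraries were used. Without WT replicate 3 every KO library lay below WT (log2 fold change -0.12), as in 5.9% of tested rows.

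Enzymes that modify Dnm1l or the mitofusins were split evenly, with 4 of 8 at a higher and 4 at a lower fitted value (median 0.069), and 5 and 3 without WT replicate 3 (median 0.023). Cdk1, a cell cycle kinase that phosphorylates Dnm1l in mitosis, was at 95.6, 84.8 and 125 RPKM in WT and 73.7, 73.5 and 101 in KO, lower in all 3 numbered pairs. Pink1, the kinase that marks damaged mitochondria and acts on mitofusins through parkin, was at 30.9, 35.6 and 83.1 RPKM in WT and 46.8, 47.2 and 63.6 in KO. Its highest library was WT replicate 3 and its lowest were the other WT libraries. The log2 fold change was 0.20 (SE 0.37, limma adjusted p = 0.91). Without WT replicate 3 every KO library lay above WT, as in 5.42% of tested rows. The log2 fold change of Pink1 was then 0.63 (SE 0.18, unadjusted p = 0.00761, limma adjusted p = 1). It was the 1 of 37 tested companion genes with an unadjusted p under 0.05 in that fit, in which 2.2% of all tested rows had one. Park2, which encodes parkin, was at most 0.108 RPKM in any library.

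The cristae complex MICOS and its outer membrane partner Samm50 had lower fitted values in KO for 7 of 7 members, with a median of -0.26, and for 4 of 7 without WT replicate 3, with a median of -0.033. Chchd3, a MICOS subunit, was at 43.3, 41.6 and 77.0 RPKM in WT and 41.2, 45.2 and 57.8 in KO, and Minos1, the small core subunit, at 35.0, 31.4 and 90.5 and at 28.5, 33.0 and 45.1. Both were highest in WT replicate 3, and without it their log2 fold changes were 0.16 in place of -0.12 and 0.072 in place of -0.40. The tested members of this list had a median transcript length of 1550 nucleotides, against 2978 over all tested rows. With length and GC trends removed the fitted value stayed below 0 for 6 of 7, with a median of -0.13 and 0 calls, and Chchd3 was the exception at 0.040. Over all tested rows with a length, 4190 of 8261 were below 0 after this correction, with a median of -0.0026. Before it 4402 of all 8302 tested rows were. In the uncorrected RPKM, KO was lower in all 3 numbered pairs for 4 of the 7, beside 20.1% of tested rows. WT replicate 3 was the highest library of each of these 4.

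In the list named outer membrane fusion helpers, which also takes in lipid enzymes, 2 genes were tested. Their median was 0.074, and -0.060 without WT replicate 3. Lpin1, a phosphatidate phosphatase, was at 3.29, 4.08 and 2.45 RPKM in WT and 2.96, 3.67 and 3.90 in KO, and Miga2, which helps mitofusins through a phospholipase, at 3.13, 3.54 and 2.34 and at 2.91, 3.45 and 3.07. For transport on microtubules 3 of 4 members had a higher fitted value (median 0.16, and -0.0078 without WT replicate 3). Trak2, an adaptor that links mitochondria to motor proteins, was at 247, 220 and 162 RPKM in WT and 254, 186 and 269 in KO, and the row with Rhot2, an outer membrane GTPase, at 71.6, 71.2 and 95.5 and at 64.4, 66.6 and 77.1. The groups overlapped for each of these genes and rows, though the row with Rhot2 was lower in KO in all 3 numbered pairs.

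**Figure D5:**
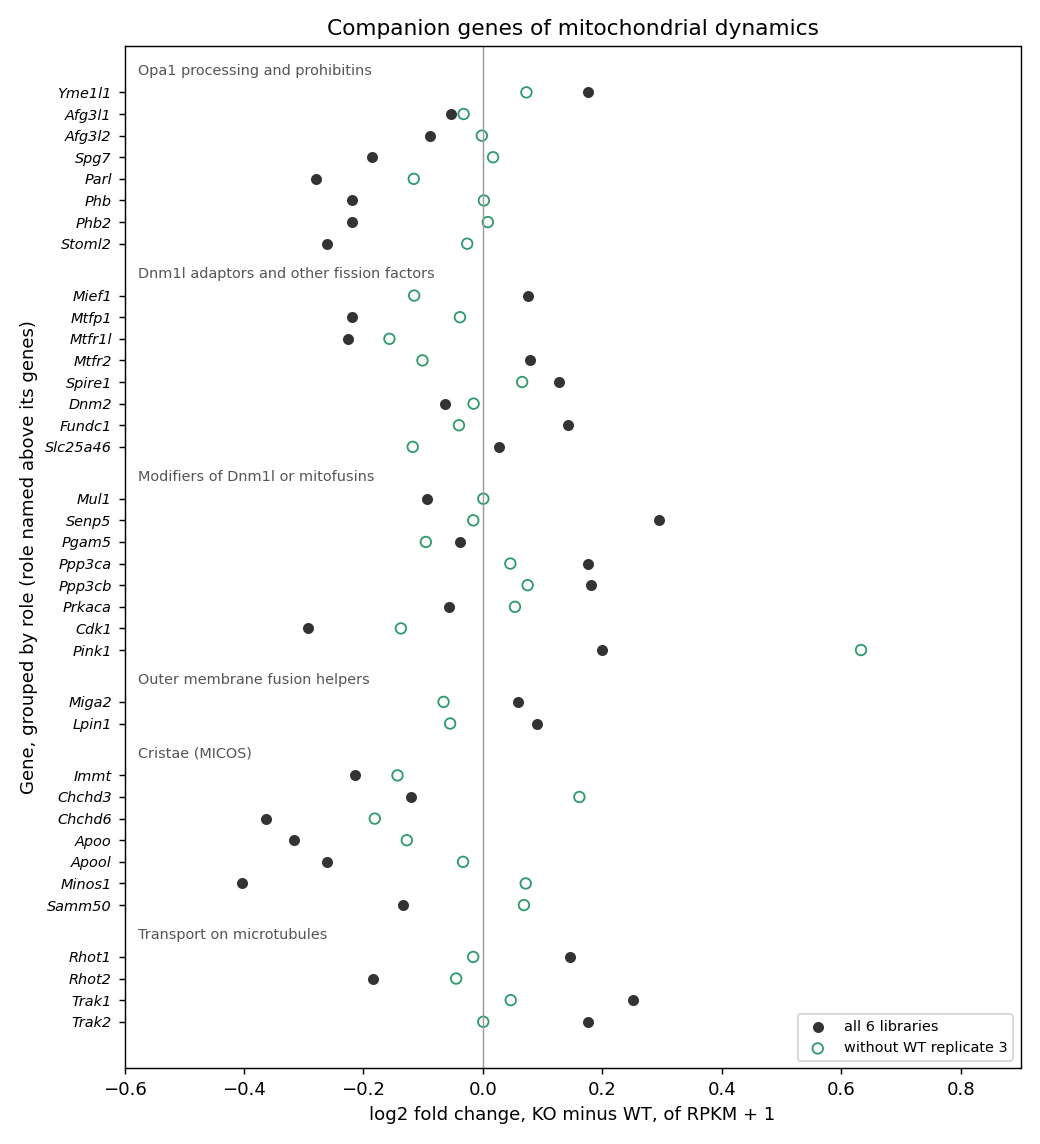
Log2 fold change of RPKM + 1, KO minus WT, for the 37 tested companion genes grouped by role, with all libraries (filled) and without WT replicate 3 (open). The 7 cristae genes lie left of 0 with all libraries and on both sides of it without WT replicate 3, and Pink1 moves from 0.20 to 0.63.

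The rows most like Mfn2, Opa1 and Dnm1l over the 6 libraries were found among 5368 single-gene rows with a mean of at least 5 RPKM. For Mfn2 they were Ide and Kat7 (Pearson r of log2 levels 0.994 for both, and 0.92 and 0.91 without WT replicate 3). For Opa1 they were Atad1 (0.996, then 0.93) and Acly (0.991, then 0.85), and for Dnm1l Col4a3bp (0.999, then 0.98) and Lnp (0.998, then 0.98). All 6 have transcripts of at least 3321 nucleotides, and they were chosen for their likeness among many rows.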

How the data were processed

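RPKM values were deposited by the authors and made with TopHat and Cufflinks on build mm9, per the submitters' processing notes. Tool versions, the annotation and use of strand were not given in the sources used here. Total RNA was prepared with the TruSeq RNA kit, per the labels' protocols. Steps of low RPKM values put 4 libraries at 79.7% to 93.1% of the depth of WT replicate 2, with 44.1% to 82.5% of values within 0.03 (log2) of whole-read ratios. WT replicate 3 gave no clear depth (17.2%).

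Rows with a number as name (25 of 23119, a mean of 0.158% of the RPKM sum) were left out. Rows averaging at least 1 RPKM (8302) were tested as log2(RPKM + 1) by limma 3.58.1 (R 4.3.3), with a variance trend and Benjamini-Hochberg adjustment over them all, which understates changes of low genes. Reads of paralogs may be split between copies. Lengths and GC content came from the longest GENCODE M21 transcript (99.5% of tested rows), and trends were removed by lowess on each library's deviations. The script was tested on simulated data. Named genes were all 8 members, Tfam, per role the 2 companion genes of highest mean, any companion whose groups did not overlap, and for Mfn2, Opa1 and Dnm1l the 2 most correlated rows. Slc25a46 and Park2 were added after their values were seen. Promoter windows were chosen by the number of GENCODE starts within 100 bases, the first listed on a tie. Figures used Python 3.11.15 and matplotlib 3.10.9. Members, lists and rules were chosen with earlier results of these data known.

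The labels number replicates alike in both groups. Deviations from group means correlated at 0.46, 0.17 and 0.53 between libraries numbered 1, 2 and 3, so by the rule of 0.1 the numbers were taken to pair them. The main fits did not use this pairing, and the fit with a replicate block is given as an alternative. No label states a pairing, and WT replicate 2 correlated more with KO replicate 1 (0.40).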

Additional observations from a re-analysis of the deposited data

How the results depend on the processing

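Members and companion genes gave 0 calls under each alternative: a pseudocount of 0.1, no filter, a mean RPKM of at least 5 (which leaves out Oma1), quantile normalization, no variance trend, removal of length and GC trends, the replicate block with and without those trends, and leaving out each library. Over these alternatives the adjusted p of a member was 0.65 to 1. With the replicate block 0 rows passed (lowest adjusted p 0.715), and the block changed no call. The number of rows called over the table was 0 to 2 when single libraries were left out: 1 without WT replicate 3, 2 without KO replicate 2 and 1 without KO replicate 3. The median log2 fold change of the members, 0.048, was 0.11 after quantile normalization, 0.0059 with length and GC trends removed (with or without the replicate block), and -0.030 to 0.095 with 1 library left out. That of the companion genes was -0.16 (without KO replicate 3) to -0.016 (without WT replicate 3). Signs of single members also turned. Mfn1 was at -0.021 after quantile normalization and -0.11 once length and GC trends were removed, and Opa1 at -0.0071 in the latter, and these last 2 values were the same with the replicate block. With 1 library left out Mfn1 ranged from -0.025 to 0.050, Mfn2 from -0.13 to 0.21, Opa1 from 0.030 to 0.29, Oma1 from -0.20 to -0.049, Dnm1l from -0.063 to 0.27, Fis1 from -0.75 to 0.13, Mff from -0.12 to 0.21, Mtfr1 from -0.12 to 0.22 and Tfam from -0.24 to 0.0032. The sign turned without WT replicate 3 for Mfn2, Dnm1l and Fis1, without KO replicate 3 for Mtfr1 and Mff, without WT replicate 1 or 2 for Mff, without KO replicate 1 for Mfn1 and without WT replicate 2 for Tfam. The causes were not tested. The difference of Tfam means, -0.658 RPKM, ranged from -1.36 to -0.0013. For the within-library ratios, length correction and leaving out libraries were chosen after seeing the data. The KO minus WT log2 ratio of Opa1 to Oma1, 0.41, was 0.088 with length and GC trends removed and 0.28 to 0.51 with 1 library left out. Under the latter, Mfn2 to Mfn1 ranged from -0.14 (without WT replicate 3) to 0.24, Dnm1l to Opa1 from -0.15 to 0.013 and Mff to Fis1 from 0.079 (without WT replicate 3) to 0.67.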
